A study of Ovis aries with 16 samples.

Results

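The genes PTGS2, PTGS1 and CYP2J, which encode enzymes that oxidize arachidonic acid, were followed in the hypothalamus of fetal sheep after brief maternal hypoxia with and without ketamine. All probes carrying these gene names, or described as prostaglandin-endoperoxide synthase 1 or 2, were taken, which gave 3 of the 972 genes named on the array and 5 of its 15008 probes. PTGS2 and CYP2J had 2 probes each and PTGS1 had 1, and all 5 were among the 12249 probes bright enough to be tested. The 3 genes were picked with their difference between hypoxia and normoxia without ketamine already known, so that difference is described below without a test.

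The samples were 16 Suffolk fetuses of late gestation, each on its own array, from conscious ewes in which mother and fetus had been catheterized beforehand. Normoxia control fetuses (NC, n = 3) and hypoxia control fetuses (HC, n = 5) were given saline into a vein, while normoxia + ketamine (NK, n = 4) and hypoxia + ketamine (HK, n = 4) fetuses were given ketamine, an anesthetic that blocks N-methyl-D-aspartate glutamate receptors. The injection preceded 30 min of normoxia or of hypoxia, which was produced by lowering the oxygen in the gas the ewe breathed. Tissue was taken 24 h after the onset, following 23.5 h of recovery, so the early response was not sampled. All ewes had received ampicillin at surgery. Most fetuses were twins and pregnancies rather than fetuses were assigned to normoxia or hypoxia, but littermates are not named in the labels, so p-values measure the spread between these fetuses with any relatedness left in.

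Arachidonic acid is released from membrane phospholipids and is then oxidized along several routes. The cyclooxygenases convert it to prostaglandin H2, from which terminal synthases make the prostaglandins and thromboxane that act on their own G protein-coupled receptors. PTGS1 (cyclooxygenase-1) is usually present at a steady level, whereas PTGS2 (cyclooxygenase-2) is induced by inflammatory signals and, in brain, is also made by some neurons. In the hypothalamus prostaglandin E2 is best known as the mediator of fever, and in the fetal sheep prostaglandins take part in the control of the stress axis. CYP2J enzymes are cytochrome P450 epoxygenases that turn arachidonic acid into epoxyeicosatrienoic acids, lipids that dilate vessels.

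The probe sequences are shown because the probes of one gene read different stretches of its transcript, and those of PTGS2 did not behave alike. Only the last 30 bases are given for the cyclooxygenase probes, with the polyadenylation-signal hexamers AATAAA and ATTAAA in capitals, and all 60 bases for CYP2J, in which neither hexamer was found. All are written 5′ to 3′ in the sense of the transcript, as on the array.
PTGS2 A_70_P039256: ttggtgcctcagactatgtatgATTAAAtt
PTGS2 A_70_P039257: aatttcATTAAAgagaaataactcagggga
PTGS1 A_70_P012596: tgtttttcatgaagttAATAAAatgctttt
CYP2J A_70_P030336: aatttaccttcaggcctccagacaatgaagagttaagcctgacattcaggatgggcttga
CYP2J A_70_P030339: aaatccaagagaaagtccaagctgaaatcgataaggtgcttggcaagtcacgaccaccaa
All 3 cyclooxygenase probes held a hexamer in these 30 bases on their own strand, against 5.12% of all 15008 probes (2.90% on the opposite strand). The hexamers are matches of letters, not mapped cleavage sites. By the array's annotation the dim PTGS2 probe, A_70_P039257, begins at base 3117 of the transcript, 184 bases before A_70_P039256 at base 3301. The CYP2J probes begin at bases 1423 and 1015, and the PTGS1 probe at base 2548. GC content was 35% and 38.3% for the PTGS2 probes, 40% for PTGS1 and 45% for both CYP2J probes.

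Values are log2 signal relative to the 75th percentile of the same array, so that 0 is as bright as the upper quartile of spots, and they can be compared between arrays for 1 probe but not between probes. Each gene was represented by its probe with the highest mean, called the main probe. On an array 71.6% to 80.5% of probes stood well above background, and the 75th percentile lay between 1248 and 1597 intensity units. Arrays of a group correlated at 0.9585 to 0.9857 across probes, a range much like that between groups (0.9566 to 0.987). Of 18 hypothalamic peptide genes listed, the 10 on the array all passed the brightness filter, AGRP, OXT, POMC and GHRH among them. No gene listed for neurons or oligodendrocytes was on the array by name. The arrays came from 2 slides of 8, each holding all 4 groups.

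PTGS2 was low and tightly grouped in normoxia and high but scattered after hypoxia. The main probe read -2.32, -2.47 and -2.25 in NC, and -1.64, -1.997, -2.13 and -1.64 in NK. It read 0.64, 0.53, 0.08, 2.34 and -0.54 in HC, and -0.65, 0.62, -1.72 and -0.37 in HK. Every HC fetus was above every NC and NK fetus, HC4 was the highest of all 16, and HK3 lay with the NK fetuses. In intensity units the arrays spanned 239 to 317 in NC, 316 to 428 in NK, 953 to 6916 in HC and 418 to 1967 in HK.

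**Figure D1:**
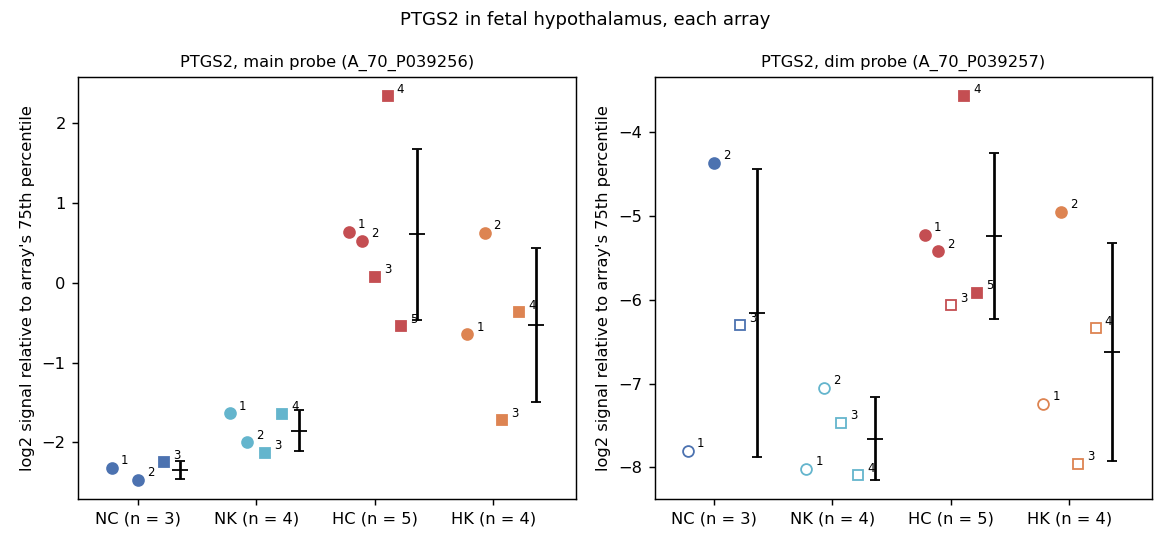
PTGS2 on each of 16 arrays by group, with log2 signal (array's 75th percentile set to 0) on the vertical axis, for the main probe (left) and the dim probe (right). Circles are slide 1 and squares slide 2, numbers are replicate numbers, open symbols are arrays on which the probe was not well above background, and bars are the mean ± SD. On the left all 5 HC arrays sit above all 7 normoxic arrays, and on the right most symbols outside HC are open.

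The group means of PTGS2 ran in the order NC, NK, HK, HC. They were -2.34 ± 0.11 (SD, n = 3) in NC, -1.85 ± 0.25 (n = 4) in NK, -0.53 ± 0.96 (n = 4) in HK and 0.61 ± 1.07 (n = 5) in HC. The arrays of NC and NK did not overlap although their means were only 0.49 apart, and the arrays of NK and HK overlapped only through HK3. The arrays of HK and HC overlapped widely. The spread within the hypoxic groups was several times that in normoxia, and the fit assumes a common spread for all groups.

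Between HC and NC the difference in PTGS2 was 2.95 ± 0.55 (SE), or 7.73-fold, and the slides gave 2.98 and 2.87. At the unadjusted threshold of p under 0.05, 8.15% of the 12249 tested probes were called in this comparison, and arrays of the groups did not overlap for 4.93%. Since the gene was picked on this comparison, these values describe it and support nothing further.

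The comparison of HK with HC asked whether ketamine given before hypoxia altered the later level. It uses the HC arrays on which PTGS2 was picked as high, so it is not independent of that choice, and the part of the choice in a lower HK value was not tested. PTGS2 was lower in HK by -1.14 ± 0.50 (SE) in log2, or 2.20-fold, with a 95% interval of -2.21 to -0.06. It passed limma's unadjusted threshold but not the Benjamini-Hochberg adjustment over all tested probes (adjusted p = 0.698), and 7.04% of tested probes were called without adjustment. Arrays of these groups did not overlap for 1.55% of probes, and for PTGS2 they did. The lowest HC fetus, HC5, was below both HK2 and HK4, and an exact two-sided permutation test of the 9 arrays gave p = 0.159 (126 arrangements, smallest possible p = 0.0079). The call was lost on leaving out any of HC1, HC2, HC4, HK1, HK3 or HK4. Without HC4 the difference was -0.70 and without HK3 it was -0.74.

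In the fetuses given ketamine, PTGS2 was higher after hypoxia, in a comparison that shares no array with the one on which it was picked. HK exceeded NK by 1.32 ± 0.53 (SE), or 2.50-fold, with a 95% interval of 0.19 to 2.46 (limma, adjusted p = 0.484). It passed the unadjusted threshold, as did 8.69% of all tested probes. Only HK3, at -1.72, fell within the NK range, while 5.42% of probes had no overlap at all, and the exact two-sided permutation test gave p = 0.0857 (70 arrangements, smallest possible p = 0.0286). The difference was 1.80 on slide 1 and 0.84 on slide 2, and it was not called on slide 2. The call was also lost without NK2, NK3, HK2 or HK4, and without HK2 the difference was 0.94. In the same comparison 2 of 4 tested genes listed for choroid plexus and meninges were called lower in HK, and PTGDS of the 4 was saturated. DCN differed by -0.92 ± 0.21 (SE) with no overlap and COL1A2 by -0.79 ± 0.34. Neither DCN nor COL1A2 was called in HK against HC (-0.35 ± 0.20 and -0.57 ± 0.32) or against NC (-0.37 ± 0.23 and -0.44 ± 0.36). DCN was called higher in NK than in NC (0.55 ± 0.23). The part of these genes in the PTGS2 difference was not tested.

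HK was also compared with untreated normoxia. This comparison uses the NC arrays on which PTGS2 was picked as low, so it is not independent of that choice. All 4 HK fetuses were above all 3 NC fetuses, a separation found in 7.77% of tested probes. The difference was 1.81 ± 0.57 (SE), or 3.52-fold, with a 95% interval of 0.59 to 3.04 (limma, adjusted p = 0.707). It passed the unadjusted threshold, as did 6.84% of tested probes. The call held without any 1 of the 16 arrays (1.43 to 2.21). It held on slide 1 (2.38) but not on slide 2 (1.20), where NC had 1 array.

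NK was compared with NC for ketamine without hypoxia. The NC arrays are again those on which PTGS2 was picked as low, so neither fit of this difference is independent of that choice. All 4 NK fetuses were above all 3 NC fetuses, as was so in one direction or the other for 2.32% of tested probes. The difference was 0.49 ± 0.57 (SE), with a 95% interval of -0.73 to 1.72 (limma, adjusted p = 1), and it was not called, while 1.09% of tested probes were. In a fit of these 7 arrays alone, which leaves out the wide spread of the hypoxic groups, the same difference of 0.49 passed the unadjusted threshold. With normexp background correction, which treats background in another way, it was 0.0065. The interaction subtracts NK minus NC from HK minus HC. It therefore contains the HC against NC difference on which the gene was picked, and it is given as a value without a test, at -1.63 ± 0.76 (SE) for the main probe. Over all tested probes 3.8% were called in the interaction.

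The dim PTGS2 probe was well above background on only 6 of 16 arrays, of which 4 were HC, 1 was NC (NC2) and 1 was HK (HK2). It read -7.80, -4.37 and -6.30 in NC, -8.01, -7.05, -7.46 and -8.09 in NK, -5.22, -5.42, -6.07, -3.57 and -5.92 in HC, and -7.24, -4.95, -7.95 and -6.34 in HK. Its highest value came from HC4, as for the main probe, and the second highest came from NC2, where the main probe had its lowest. HK was lower than HC by -1.38 ± 0.72 (SE, 95% interval -2.92 to 0.16) and higher than NK by 1.03 ± 0.76 (-0.59 to 2.66), the same directions as for the main probe. Against NC the directions were opposite, at -1.50 ± 0.82 for NK (95% interval -3.26 to 0.26) and -0.47 ± 0.82 for HK (-2.22 to 1.29), and none of these was called. Readings near background carry little information on size, and no fold is given for this probe.

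PTGS1 was well above background on all 16 arrays and its groups overlapped throughout. It read -0.95, -2.02 and -1.48 in NC, -1.44, -1.58, -0.99 and -0.48 in NK, -1.61, -0.34, -0.98, -0.94 and -1.67 in HC, and -1.34, -1.10, -1.37 and -0.84 in HK. Single fetuses of 1 group lay further apart than any pair of group means, with HC2 the highest and NC2 the lowest of the 16. The means were -1.48 ± 0.54 (SD, n = 3) in NC, -1.16 ± 0.25 (n = 4) in HK, -1.12 ± 0.50 (n = 4) in NK and -1.11 ± 0.55 (n = 5) in HC, and no neighbours in that order differed beyond their spread.

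No tested difference in PTGS1 was called. HK differed from HC by -0.05 ± 0.30 (SE), with a 95% interval of -0.70 to 0.59, and from NK by -0.04 ± 0.32, with an interval of -0.72 to 0.64. Exact two-sided permutation tests gave p = 0.881 and p = 0.886 for these comparisons. These intervals include differences as large as 0.72 downward and 0.64 upward. The sign of the HK against HC value turned without HC2, HK1 or HK3, and that of HK against NK without NK3, NK4, HK1 or HK3. NK was 0.36 ± 0.34 above NC (95% interval -0.38 to 1.096), HK was 0.32 ± 0.34 above NC (-0.42 to 1.06). Without NC2 these values were 0.09 and 0.05, and without NC1 they were 0.63 and 0.59. Adjusted p-values (limma) of these PTGS1 differences ranged from 0.859 to 1. HC lay 0.37 ± 0.33 (SE) above NC, or 0.10 without NC2 and 0.64 without NC1. The interaction was -0.41 ± 0.46.

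CYP2J was read by both of its probes on all 16 arrays. The main probe read -0.92, -0.73 and -1.16 in NC, -0.72, -0.87, -0.69 and -1.16 in NK, -1.13, -2.17, -1.74, -1.04 and -1.14 in HC, and -1.04, -0.93, -1.66 and -0.99 in HK. The other probe read -1.999, -1.87 and -2.26 in NC, -1.91, -2.11, -1.93 and -2.33 in NK, -2.56, -3.22, -2.62, -2.29 and -2.37 in HC, and -2.19, -2.03, -2.72 and -2.18 in HK. Both probes had their lowest value in HC2, and in HK both had their lowest value in HK3. The 3 highest values of both probes came from NC2, NK1 and NK3, all normoxic.

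**Figure D2:**
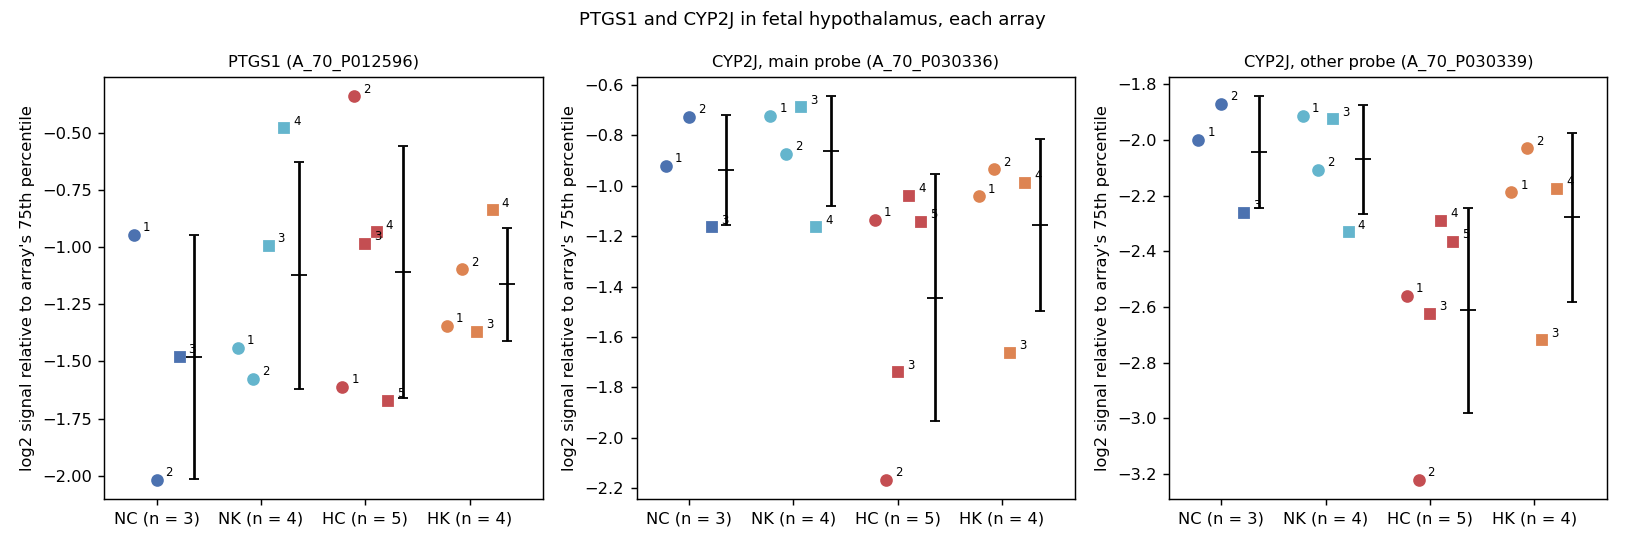
PTGS1 (left) and the main and other CYP2J probes (middle and right) on each of 16 arrays by group, as log2 signal with the array's 75th percentile set to 0, with each panel on its own vertical range. Circles are slide 1, squares slide 2, numbers are replicate numbers and bars are the mean ± SD. PTGS1 groups overlap throughout, and for CYP2J the HC arrays reach lowest, with HC2 at -2.17 and -3.22.

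By the main probe the CYP2J means were -1.45 ± 0.49 (SD, n = 5) in HC, -1.16 ± 0.34 (n = 4) in HK, -0.94 ± 0.22 (n = 3) in NC and -0.86 ± 0.22 (n = 4) in NK, and neighbours in that order overlapped. By the other probe they were -2.61 ± 0.37 in HC, -2.28 ± 0.30 in HK, -2.07 ± 0.20 in NK and -2.04 ± 0.20 in NC. HC lay below NC by -0.51 ± 0.25 (SE), or 1.42-fold, for the main probe, with arrays of the groups overlapping. This value was -0.83 on slide 1, -0.14 on slide 2 and -0.33 without HC2. For the other probe it lay below by -0.57 ± 0.20, with no overlap, as was so for 4.93% of tested probes. As for PTGS2, this comparison chose the gene and was not tested.

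None of the tested differences in CYP2J was called. As for PTGS2, HK against HC uses the HC arrays on which the gene was picked, and the comparisons with NC use the NC arrays. Only HK against NK shares no array with that choice. HK was above HC by 0.29 ± 0.23 (SE), with a 95% interval of -0.21 to 0.78, for the main probe, and by 0.33 ± 0.19, with an interval of -0.07 to 0.74, for the other. For the main probe it was 0.66 on slide 1 and -0.018 on slide 2, and 0.11 without HC2. HK was below NK by -0.30 ± 0.24 (95% interval -0.82 to 0.23) and -0.21 ± 0.20 (-0.63 to 0.22) respectively. NK differed from NC by 0.08 ± 0.26 and -0.03 ± 0.21, HK from NC by -0.22 ± 0.26 and -0.23 ± 0.21, and the interaction was 0.21 ± 0.35 and 0.36 ± 0.28. Exact two-sided permutation tests over the arrays gave p = 0.341 for HK against HC and p = 0.2 for HK against NK with the main probe.

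**Figure D3:**
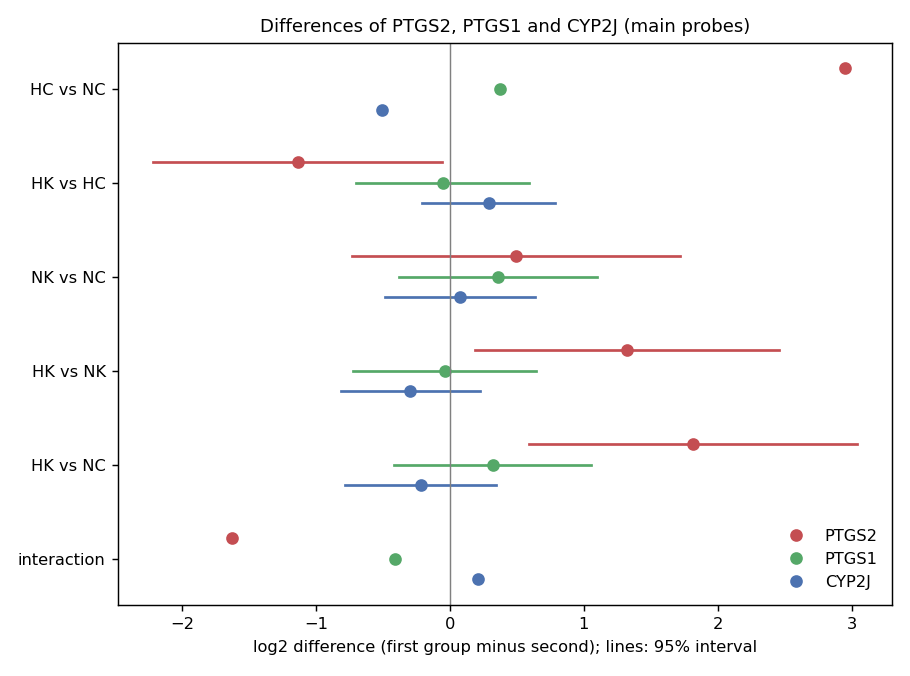
Log2 differences of PTGS2, PTGS1 and CYP2J (main probes) between groups, first group minus second, with 95% intervals from the fit on 16 arrays as lines. HC vs NC, and the interaction that contains it, are drawn without intervals because they are descriptions only. Of the tested differences, only the PTGS2 intervals for HK vs HC (ending at -0.06), HK vs NK and HK vs NC do not cross 0. Of these, only HK vs NK shares no array with HC vs NC, on which the gene was picked. All intervals of PTGS1 and CYP2J cross 0.

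The 3 genes were then compared fetus by fetus within groups, after group means had been subtracted. PTGS2 and PTGS1 had Pearson's r = 0.30 (permutation p = 0.321) and Spearman's rho = 0.37 (p = 0.187) over 16 arrays. PTGS2 and CYP2J had r = 0.39 (permutation p = 0.302) and rho = 0.29 (p = 0.34), and r was 0.13 without HC4 and HK2. PTGS1 and CYP2J had r = -0.50 (permutation p = 0.0944) and rho = -0.40 (p = 0.189), and r was -0.14 without HC2 and NK4, so its size rested on those arrays. Over the 3 pairs no adjusted p was below 0.283, and with slide also removed r was 0.35, 0.37 and -0.49.

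Of 86 names listed for arachidonic acid release, prostanoid and leukotriene synthesis, transport, receptors and cytochrome P450 metabolism, 14 were on the array, and 10 besides the 3 enzymes were tested. None of the 10 passed the adjusted threshold in any comparison, as 1 of all 12249 tested probes did (0.00816%, HK against NK). Without adjustment 1 was called higher in HC against NC, 1 lower in HK against HC, 1 higher in HK against NK and 2 higher in HK against NC, and none was called in NK against NC or in the interaction. The shares of all tested probes called were those given for PTGS2. The median difference of the 10 was 0.25 for HC against NC, -0.09 for HK against HC, 0.08 for NK against NC, -0.01 for HK against NK, 0.09 for HK against NC and -0.38 for the interaction. Over all tested probes the medians were -0.03, 0.03, 0.02, -0.01, 0.01 and 0.01 in the same order.

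ANXA2, a calcium-dependent membrane-binding protein, differed by -0.22 ± 0.17 (SE) between HK and HC and was not called in any comparison. PTGDS, which makes prostaglandin D2 in brain and meninges, was saturated on all 16 arrays, at 60223 to 65447 intensity units, so its differences are not measured and no value is given for them.

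SLCO2A1, the transporter that takes prostaglandins into cells, was higher in HK than in the normoxic groups. It read -2.68, -2.68 and -2.32 in NC, -2.52, -2.67, -2.23 and -2.79 in NK, -2.09, -2.07, -2.10, -2.74 and -2.44 in HC, and -1.43, -1.96, -2.06 and -2.39 in HK. The 3 highest values of all 16 were HK fetuses, and HK4 lay within the range of NC and NK. HK exceeded NK by 0.59 ± 0.20 (SE, limma, adjusted p = 0.421) and NC by 0.60 ± 0.22 (adjusted p = 0.707), both called without adjustment. The first call was kept without any 1 array (0.42 to 0.74) and lost with normexp background correction (0.66) and within slide 2 (0.29). The call against NC was lost under both of these (0.29 and 0.0991) and without NC1, NC2 or HK1 (0.54, 0.54 and 0.43).

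Among the receptors, PTGER3, a prostaglandin E2 receptor, was higher in HK than in NC by 0.65 ± 0.27 (SE, limma, adjusted p = 0.707) and called without adjustment, while its second probe gave 0.30 ± 0.33 and was not called. The call was lost without NC2, NC3, HK3 or HK4 (0.54 to 0.67), within slide 1 (0.34) and with normexp background correction. PTGER4, another prostaglandin E2 receptor, differed by -1.20 ± 0.58 between HK and HC (95% interval -2.44 to 0.03) and was not called, with HK3 and HK4 not well above background. Its second probe gave -0.63 ± 0.78 and was not called, with HC5, HK3 and HK4 not well above background. PTGFR, the receptor for prostaglandin F2α, differed by no more than 0.56 between any groups and was not called. PTGER2 was well above background on too few arrays to be tested (2 and 1 of 16 for its probes).

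The PTGER1 probes disagreed, although they begin at bases 174 and 172 of the same transcript and so read nearly the same stretch. On NC1, NC2 and NC3 the brighter probe read 72.2, 73.9 and 84.6 intensity units, and the dimmer one 5.5, 14.5 and 18.9. The bounds below therefore describe the dimmer probe and are not taken as a rise of the gene. Both read another E2 receptor, and the dimmer one was well above background on 0 of 3 NC arrays and on 3 of 4 NK arrays. It was at least 1.94-fold higher in NK (limma, adjusted p = 1) and at least 1.34-fold higher in HK (adjusted p = 0.707) than in NC, both called without adjustment, although the NK difference turned to -0.36 with normexp background correction. The HK call was lost without NC1 (0.94), HK3 (1.06) or HK4 (1.08), and on slide 1 it was 0.63. The brighter probe gave -0.12 ± 0.84 and -1.20 ± 0.84 (SE) for the same comparisons and was not called.

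PPARG, a nuclear receptor that prostaglandin D2 products can activate, was higher in HC than in NC and HK, except with normexp background correction, which turned both signs (-0.12 and 0.07). It read -3.06, -3.28 and -3.27 in NC, -3.36, -3.05, -3.17 and -3.20 in NK, -3.08, -2.63, -3.04, -2.42 and -3.04 in HC, and -3.37, -3.46, -3.20 and -2.90 in HK. HC4 and HC2 stood above the rest, and the other HC fetuses overlapped the remaining groups. HC exceeded NC by 0.36 ± 0.16 (SE, limma, adjusted p = 0.591) and HK was below HC by -0.39 ± 0.15 (adjusted p = 0.685), both called without adjustment. Both calls were lost without HC2 (0.31 and -0.34) or HC4 (0.26 and -0.29). The call against NC was also lost without NC2, NC3, NK3, NK4 or HK3 and under most other settings, with slide as a block among them (0.34), and that of HK against HC without HK1 or HK2. CYP1A1 and CYP4F21, further cytochrome P450 genes, were dim and not called.

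**Figure D4:**
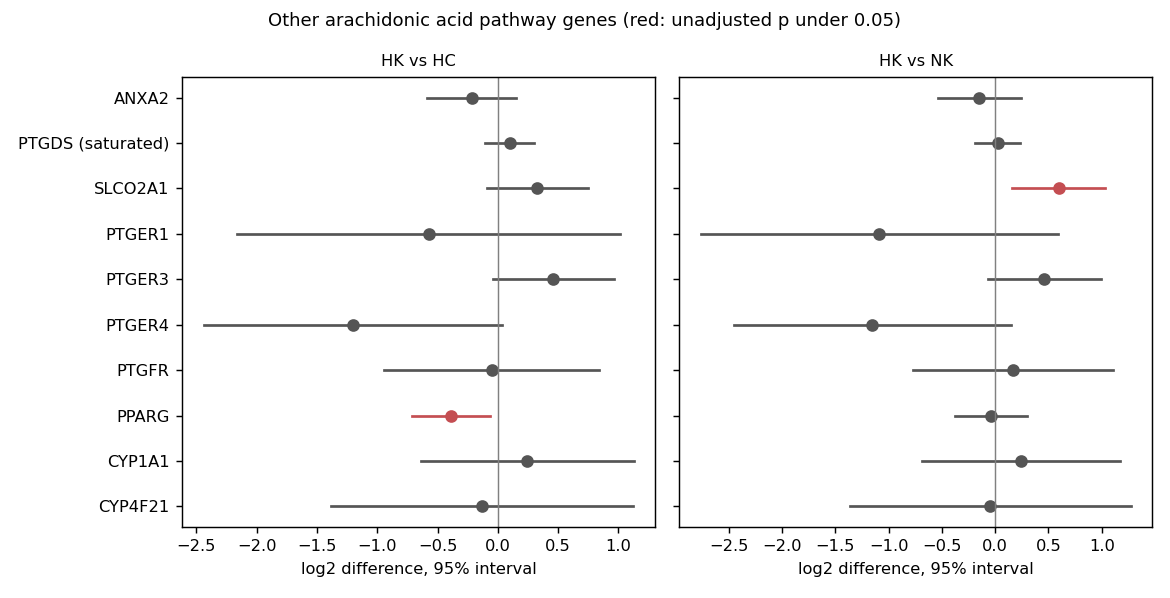
Log2 differences with 95% intervals (limma, 16 arrays) for the 10 other arachidonic acid pathway genes tested, for HK vs HC (left) and HK vs NK (right), with genes at an unadjusted p under 0.05 in red. PPARG alone is red on the left (-0.39, but 0.07 with normexp background correction) and SLCO2A1 alone on the right (0.59), the dim receptor probes have wide intervals, and PTGDS was saturated on all 16 arrays, so its narrow interval shows nothing about change.

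The named genes whose values ran most like each enzyme over the 16 arrays were ranked by Pearson's r among 818 named genes, as a description without p-values, since the arrays share groups and slides. For PTGS2 they were IRF1 (r = 0.93), SELP (0.92), TLR2 (0.90), NFKBIA (0.90), ICAM1 (0.89) and PDXK (0.86). With group means removed r was 0.84, 0.78, 0.86, 0.74, 0.79 and 0.59, lower for all 6, least so for TLR2 and most for PDXK. SELP and ICAM1 were well above background on 12 and 13 of the 16 arrays. The group means of IRF1 were -3.83 (NK), -3.70 (NC), -2.23 (HK) and -0.90 (HC), which is the PTGS2 order except that NC and NK were exchanged.

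For PTGS1 the nearest genes were FBLN1 (r = 0.92), TLR6 (0.84), SERPINF1 (0.83), IGFBP4 (0.81), CYBA (0.78) and CLEC4E (0.76). Here r was about the same or higher with group means removed (0.93, 0.85, 0.86, 0.82, 0.80 and 0.79). FBLN1, an extracellular matrix protein, had group means of -2.75 (NC), -2.59 (HK), -2.47 (NK) and -2.35 (HC). CLEC4E was well above background on only 4 of 16 arrays. For CYP2J they were TF (0.84), CRYAB (0.81), RAB9A (0.80), GLUT8 (0.78), PANK2 (0.78) and NKX6.1 (0.73), and with group means removed 0.83, 0.78, 0.70, 0.75, 0.70 and 0.66. TF, which encodes transferrin, had group means of 4.84 (HC), 5.09 (HK), 5.22 (NK) and 5.39 (NC). The lists of the 3 enzymes shared no gene.

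**Figure D5:**
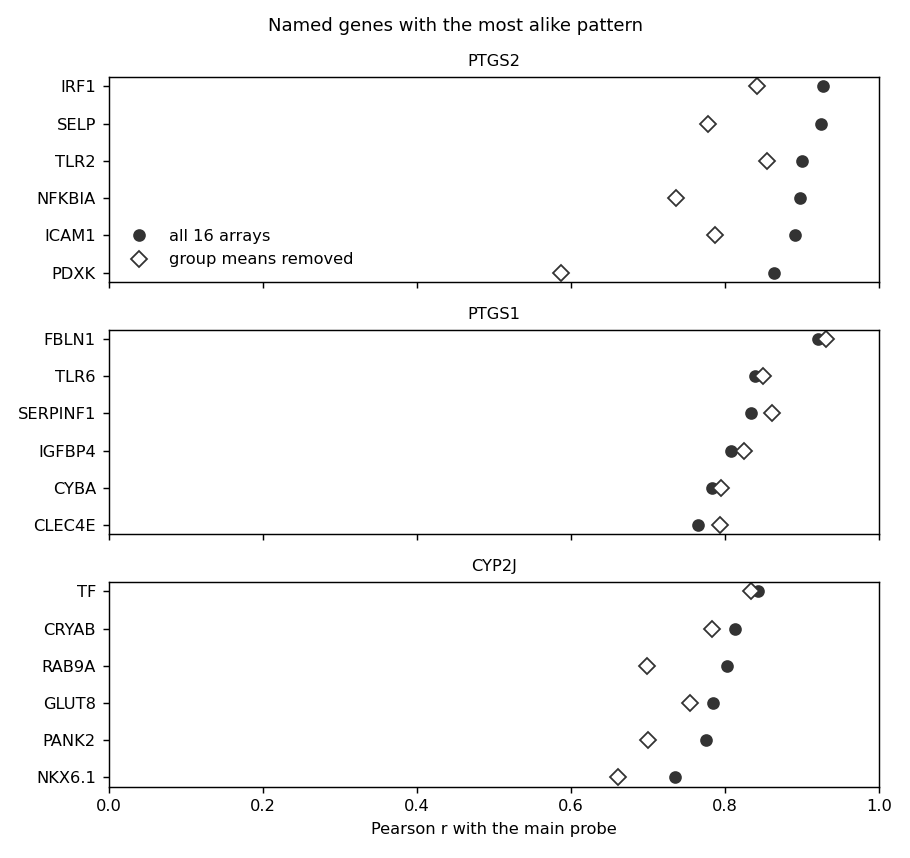
Pearson's r, on a horizontal axis from 0 to 1, between the main probe of PTGS2, PTGS1 or CYP2J and the 6 named genes most like it. Filled circles use all 16 arrays and open diamonds use values with group means removed. For PTGS1 the symbols nearly coincide, and for PTGS2 the diamonds lie lower, most of all for PDXK (0.86 against 0.59).

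Some marker genes of other cell types differed in the same comparisons as PTGS2. Of 17 genes listed for microglia and macrophages, 4 were on the array, and CD14, ITGAM and LYZ were called higher in HC against NC, while only CD14 was called in HK against HC, where it was lower (-1.35 ± 0.55 SE). The all-probe shares for these comparisons were 8.15% and 7.04%. In HC against NC the second probes of CD14 (1.36 ± 0.61 SE) and LYZ (2.43 ± 0.96) were also called, but that of ITGAM was not (0.26 ± 0.42). In HK against HC the second CD14 probe gave -1.18 ± 0.56 and was not called. LYZ was highest in HK, at 0.51 ± 0.81 against HC, and was called against NC (2.52 ± 0.93), while ITGAM and ITGB2 differed by -0.08 ± 0.30 and -0.32 ± 0.31 between HK and HC. The summed signal of these 4 genes, relative to the 75th percentile, was 0.92 to 1.35 in NC and 0.92 to 1.25 in NK. It was 0.99 to 3.73 in HC and 0.88 to 1.74 in HK. On average ITGB2 was the brightest of the 4 and weighed most in the sum. The defining microglial genes AIF1, CX3CR1 and P2RY12 were not among them. Of 10 genes listed for neutrophils 2 were on the array, and how specific they are to these cells was not tested. FCGR1A was called in HC against NC, where it was higher, and in HK against HC, where it was lower. LTF was not called in either, at 0.77 ± 0.78 for HC against NC and 0.27 ± 0.72 for HK against HC. Of 13 endothelial genes 6 were on the array, and ICAM1 alone was called in HC against NC, where it was higher, and none in HK against HC. Summed endothelial signal was 1.02 to 1.25 in NC, 1.06 to 1.34 in NK, 1.16 to 1.71 in HC and 1.06 to 1.78 in HK. On average PECAM1 was the brightest of the 6 and weighed most in this sum. Of 9 genes listed for the anterior pituitary 5 were tested. LHB alone was called, higher in HK than in HC (0.19 ± 0.08 SE), NK (0.21 ± 0.09) and NC (0.26 ± 0.09). The all-probe shares were 7.04%, 8.69% and 6.84%. The second LHB probe gave -0.34 ± 0.34, -0.39 ± 0.36 and 0.03 ± 0.38 and was not called. CGA, also on this list, had SDs of 1.81 to 3.29 within groups. In whole hypothalamus a change in the number of cells cannot be told apart from a change in RNA per cell, and the part of these cell types in the PTGS2 differences was not tested.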

How the data were processed

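RNA labelled with cyanine 3 was hybridized to 1-color Agilent sheep arrays. The deposited scanner output (Feature Extraction 10.1.1.1 per the file headers) holds linear intensity values of 15744 spots, background-subtracted within each array but not normalized between arrays by the authors. The authors also deposited a table of log2 values, whose method is not stated and which served as an alternative.

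The 536 control spots and outlier spots (0.0801%) were left out, intensities were put on the log2 scale relative to the array's 75th percentile over all other spots, and repeated spots were averaged. Probes well above background on at least 3 arrays (12249 of 15008) were tested. Of all probes, 1564 carried a gene name, partly from the sheep RefSeq table of ARS-UI_Ramb_v3.0. No genome build is named for the probes, so no genome positions are given. limma 3.58.1 (R 4.3.3) was used for a linear model with 4 groups over 16 arrays with empirical Bayes moderation, two-sided. A probe was called at an unadjusted p under 0.05, the study's threshold, and Benjamini-Hochberg p-values were taken over the 12249 probes. HC against NC and the interaction, which contains it, are given for the 3 enzymes as descriptions. The procedure was run on simulated data in which each probe had the same spread in every group. Those data do not show how the p-values hold where the spread differs between groups, as for PTGS2. Named genes are all probes of the 3 enzymes, the tested genes of a hand-written pathway list, and the 6 named genes most like each enzyme. The enzymes, lists and tests were chosen with earlier results of these data known. A bound ("at least") sets the mean of the brighter group against a floor in the dimmer group, on each array the probe's signal or, where greater, the faintest signal well above background. Other normalizations, background corrections, filters, scalings, weights, blocks, probes and left-out arrays were tried.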

Additional observations from a re-analysis of the deposited data

Results flagged for a closer look

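Of 15 sets of values checked (5 probes, and only groups of 4 or more arrays), 1 held an array set apart from the others of its group: the main CYP2J probe in HK, where HK3 read -1.663 against -1.04 to -0.93 on the other HK arrays. Chance sets apart about 5% of such groups. The other CYP2J probe was also lowest in HK3, at -2.72.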

How the results depend on the processing

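No PTGS2 main-probe difference changed sign, but calls and sizes moved, and with normexp background correction NK against NC fell to 0.0065. For HK against HC the call was lost with normexp background correction (-0.95), within slide 1 (-0.60) and slide 2 (-1.67), with only the 2 groups fitted (-1.14), and in the exact permutation test (-1.14, p = 0.159). For HK against NK it was lost within slide 2 (0.84) and in the exact permutation test (1.32, p = 0.0857), and for HK against NC within slide 2 (1.20). The NK against NC difference (0.49) was called with only the 2 groups fitted, but it uses the NC arrays on which the gene was picked. The interaction is not independent of the choice of the gene and is given as values only. It was -1.70 with slide as a block, -1.83 with array weights and -1.63 with probes well above background on all 16 arrays. The dim PTGS2 probe gave 0.92 for HC against NC, -1.38 for HK against HC, -1.50 for NK against NC, 1.03 for HK against NK, -0.47 for HK against NC and 0.12 for the interaction.

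Signs of small uncalled differences turned. For PTGS1, HK against HC was 0.045 with normexp, 0.093 within slide 2 and 0.041 with array weights, NK against NC was -0.026 within slide 1, and HK against NK was 0.11 with normexp, 0.29 within slide 1 and 0.033 with array weights. For CYP2J, HK against HC was -0.018 and the interaction -0.26 within slide 2, and NK against NC was -0.10 with normexp and -0.026 by the other probe. With normexp PPARG turned to -0.12 (HC against NC) and 0.075 (HK against HC), and the dimmer PTGER1 probe to -0.36 (NK against NC). The cause of these changes was not tested. Over all recomputed values, 736 were rated the same, 63 lost a call, 8 gained one, 25 changed sign and 54 moved. For the tested differences, the same meant an unchanged direction and side of the threshold. HC against NC of the enzymes and the counts of pathway genes were rated without a p-value. Part of the 736 could not change by design. For example, HC against NC of PTGS2 stayed at 2.95 when an array of NK or HK was left out. The tally is therefore not a measure of robustness.

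Numbers of the 10 other pathway genes called were small and moved. For HC against NC the count was 1, falling to 0 with quantile normalization, normexp, the deposited table, median scaling, slide as a block, slide 2 or only the 2 groups, and 2 within slide 1. For HK against HC it was 1, and 0 with normexp or only the 2 groups, 2 within slide 2 or with array weights and 3 with slide as a block. For NK against NC it was 0, and 1 within slide 1. For HK against NK it was 1, and 0 with normexp, 3 with slide as a block and 4 with array weights. For HK against NC it was 2, and 0 with normexp, 1 within either slide and 4 with array weights. For the interaction it was 0, and 1 with slide as a block, within slide 1 or with array weights.

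Leaving out each array in turn gave, for PTGS2, 2.52 to 3.24 for HC against NC, -1.52 to -0.70 for HK against HC, 0.42 to 0.59 for NK against NC, 0.94 to 1.72 for HK against NK, 1.43 to 2.21 for HK against NC and -2.01 to -1.20 for the interaction. For PTGS1 it gave 0.10 to 0.64 for HC against NC, -0.19 to 0.14 for HK against HC, 0.09 to 0.63 for NK against NC, -0.19 to 0.17 for HK against NK and 0.05 to 0.59 for HK against NC. For CYP2J it gave -0.62 to -0.33 for HC against NC, 0.11 to 0.46 for HK against HC, -0.037 to 0.18 for NK against NC (negative only without NC3), -0.40 to -0.13 for HK against NK and -0.33 to -0.05 for HK against NC. Pathway genes called ranged from 0 to 1 for HC against NC and for the interaction, from 0 to 3 for HK against HC, from 1 to 3 for HK against NK and from 0 to 2 for HK against NC.

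Replicate numbers are shared between groups and fall together with slide. Deviations of same-numbered arrays correlated at -0.0599 to 0.347 (median 0.224, 21 pairs) and those of differently numbered arrays of the same slide at a median of 0.208, and 9 of 16 arrays correlated best with one of their own number, so the numbers were not taken to pair the fetuses. With a replicate block PTGS2 differed by -1.42 for HK against HC and 1.32 for HK against NK, and the interaction, given as a value only, was -1.72. Pathway genes called were 3 for HK against HC, 2 for HK against NK and 1 for the interaction, and all-probe calls rose from 862 to 1142 for HK against HC. Signal limits what the dim probes show: below background only bounds could be given, and the saturated PTGDS probe gives no difference.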
